A study of Rattus norvegicus with 12 samples.

Results

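The CC chemokines examined were Ccl2, Ccl7, Ccl12, Ccl20, Ccl3, Ccl4 and Ccl5, followed in primary cultures of rat hepatocytes. They were taken by gene symbol, 7 genes of the 12616 with a known symbol on the array. That gave 8 probes, of which 2 belong to Ccl7, out of 41012 probes on each array. All 8 probes passed the filter on dim probes, as did 30977 probes in all, and all 8 were well above background on each of the 12 arrays. Livers of Sprague-Dawley rats aged 11 weeks had been perfused with collagenase, and the hepatocytes spent 24 h on plates with serum and another 24 h without it. Treatment lasted 6 h, with either the synthetic glucocorticoid dexamethasone at 100 nM ("nm" in the labels) or the vehicle, 0.01% ethanol. The 4 groups of 3 samples were male dexamethasone, male vehicle, female dexamethasone and female vehicle, and each sample had a 1-colour Agilent array to itself. The series' title asks how a glucocorticoid alters expression in hepatocytes of each sex. Whether replicates were separate animals or cultures is not said in the labels, so p-values cover only the spread of these samples, and that may be technical.

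CC chemokines are small secreted proteins that draw leukocytes towards a tissue through receptors of the CCR family on those cells. In liver they are made by resident macrophages (Kupffer cells), by other non-parenchymal cells and by hepatocytes, and interleukin 1 and tumour necrosis factor are known to induce many of them through the transcription factors NF-kB and AP-1. Glucocorticoids, acting on the glucocorticoid receptor Nr3c1, are known to lower inflammatory chemokine RNA, partly by limiting NF-kB and AP-1 and partly through induced proteins that shorten the life of such RNA.

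The probes were 60 bases long. The chemokine probes lay at 3 places on rat genome build rn3: Ccl2, Ccl7 and Ccl12 within 64.5 kb of chromosome 10 (70271542 to 70336024), Ccl5, Ccl3 and Ccl4 within 154 kb of the same chromosome (71620459 to 71774696), and Ccl20 on chromosome 9 (82626766 to 82626825). Exons are not given, because no annotation of rn3 was at hand. The 5 probe sequences below are printed because relatives such as Ccl7 and Ccl12 have to be told apart by their probes. Capitals mark the 29 bases that both Ccl7 probes share. The longest run common to probes of different genes was 8 bases. Whether a probe also binds the RNA of a relative was not tested.
Ccl7 probe 1, chr10:70282297-70282356, + strand: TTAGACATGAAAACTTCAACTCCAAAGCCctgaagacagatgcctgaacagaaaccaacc
Ccl7 probe 2, chr10:70282266-70282325, + strand: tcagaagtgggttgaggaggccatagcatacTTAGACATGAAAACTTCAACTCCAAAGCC
Ccl12, chr10:70335965-70336024, + strand: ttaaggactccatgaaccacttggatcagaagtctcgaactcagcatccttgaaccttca
Ccl4, chr10:71774637-71774696, + strand: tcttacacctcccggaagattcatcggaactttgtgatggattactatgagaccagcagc
Ccl5, chr10:71620459-71623388, - strand, a probe whose 60 bases lie in pieces over that span: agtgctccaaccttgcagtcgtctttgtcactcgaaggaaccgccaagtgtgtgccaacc

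Promoter sequence was at hand for Ccl7, Ccl12 and Ccl20, and is shown because all 3 genes fell in both sexes. The 250 bases before each gene's start are from RefSeq on build GRCr8, with positions counted back from the start. Capitals mark matches, on either strand, to a core of NF-kB sites, the letters GGGA and CC with any 4 bases between.
Ccl7, chr10:67513845-67514094, + strand: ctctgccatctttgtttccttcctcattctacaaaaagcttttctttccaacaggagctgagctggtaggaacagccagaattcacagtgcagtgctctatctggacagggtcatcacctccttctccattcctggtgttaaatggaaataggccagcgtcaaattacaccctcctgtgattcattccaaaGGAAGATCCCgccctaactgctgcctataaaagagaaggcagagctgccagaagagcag
Ccl12, chr10:67567626-67567875, + strand: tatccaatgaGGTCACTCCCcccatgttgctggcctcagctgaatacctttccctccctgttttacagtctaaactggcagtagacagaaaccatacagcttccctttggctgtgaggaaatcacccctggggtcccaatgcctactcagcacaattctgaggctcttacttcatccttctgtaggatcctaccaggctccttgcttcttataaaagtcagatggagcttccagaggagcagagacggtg
Ccl20, chr9:91836909-91837158, + strand: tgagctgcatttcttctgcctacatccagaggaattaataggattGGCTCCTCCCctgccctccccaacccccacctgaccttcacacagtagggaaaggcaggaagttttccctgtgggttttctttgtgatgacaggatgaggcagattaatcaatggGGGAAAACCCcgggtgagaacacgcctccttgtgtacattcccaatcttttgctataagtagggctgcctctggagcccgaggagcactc

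Each of the 3 promoters held the NF-kB letters, at -59 to -50 in Ccl7, at -240 to -231 in Ccl12, and at -205 to -196 and -90 to -81 in Ccl20. They occurred in 16.4% of 33469 rat promoters of the same length. The AP-1 letters TGANTCA, held by 6.34% of promoters, occurred in Ccl7 at -73 to -67. The letters AGAACA, one arm of glucocorticoid receptor sites, held by 17.5%, occurred in Ccl20 at -74 to -69. TATAAA, held by 12.9%, occurred at -34 to -29 in Ccl7 and at -41 to -36 in Ccl12. None of these matches overlapped another, both strands were searched, and a match is a description of the letters alone.

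A level below is the log2 processed signal of a probe minus the array's 75th percentile, so that 0 is the brightness of the probe at that percentile. Levels of different probes are not compared. Slide 1, which held male dexamethasone replicate 1 and all male vehicle arrays, had 45.7% to 66.5% of probes well above background on its 4 arrays, against 72.4% to 80.4% on the other 8. The gender field of the labels reads male for all 12 samples, so sex was taken from the titles. Obp3, a pheromone carrier made in male rat liver, was above background on 6 of 6 arrays titled male (2.93 to 4.26) and on 0 of 6 titled female. All 10 hepatocyte markers looked for, albumin and transferrin among them, were above background on all 12 arrays.

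In cells of each sex, 6 of the 7 chemokines fell with dexamethasone, and the exception in both was Ccl5. Of the 8 probes, 7 fell in males and the same 7 fell in females (adjusted p under 0.05), and none rose. Over all 30977 probes, 10.2% passed in males (4.85% lower and 5.35% higher) and 3.82% in females (1.01% lower and 2.8% higher). No female array lay on slide 1, so leaving that slide out leaves the female differences as they are and alters only the spread of the fit, under which the same 7 probes passed (adjusted p up to 0.042). The male response cannot be had without that slide, which held all male vehicle arrays. The 7 falls measured 2.23 to 4.32 log2 units in males and 2.21 to 4.74 in females, while the median difference over all probes was -0.06 in males and -0.02 in females. In bulk RNA, fewer cells of a type and less RNA per cell cannot be told apart.

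**Figure D1:**
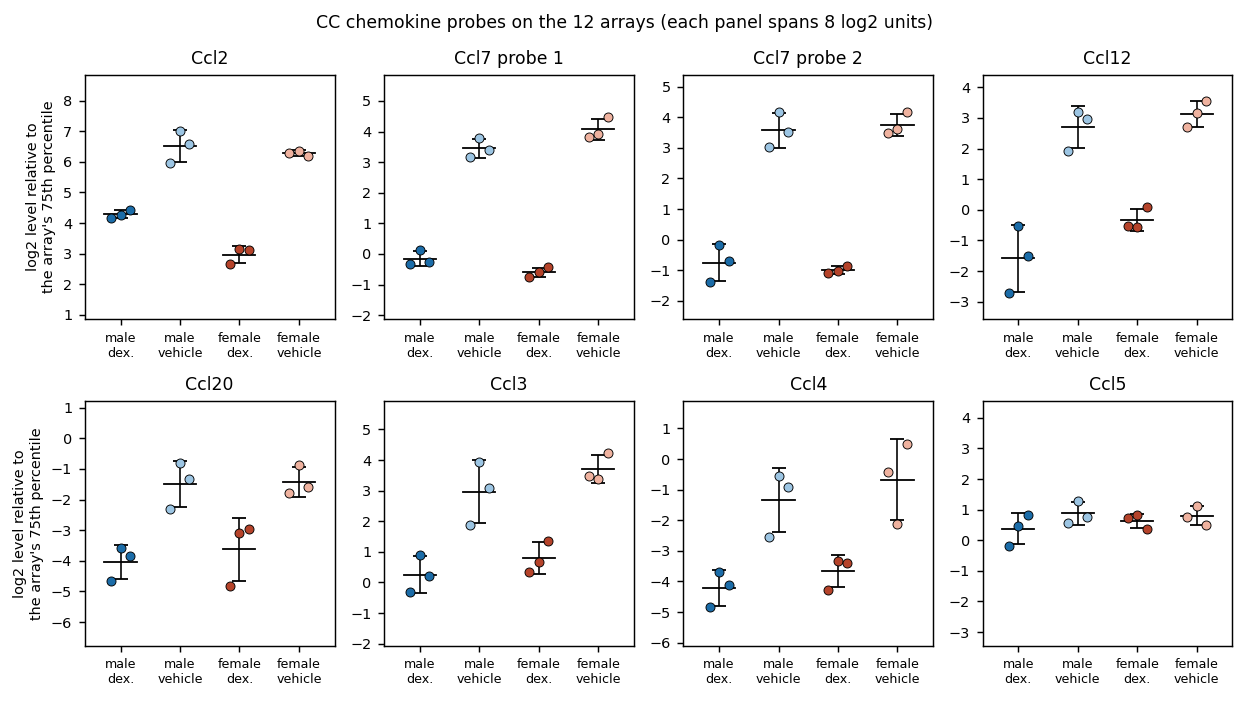
Level of each CC chemokine probe on the 12 arrays (y axis: log2 level relative to the array's 75th percentile; x axis: male dexamethasone, male vehicle, female dexamethasone, female vehicle). Points are arrays in replicate order, the line is the mean and bars are SD (n = 3). In 7 panels every dexamethasone array lies below every vehicle array of its sex, and in the Ccl5 panel the groups overlap.

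The first genes are the ligands of Ccr2, the receptor on monocytes. Ccl2, the main monocyte attractant, was at 4.17, 4.26 and 4.44 in male dexamethasone cells, against 5.96, 7.01 and 6.59 in male vehicle cells (replicates 1 to 3). Female cells read 2.65, 3.14 and 3.13 with dexamethasone, against 6.29, 6.36 and 6.19 with vehicle. Neither sex had overlapping groups, and the lowest values of all were those of female dexamethasone cells. The fall was -2.23 ± 0.25 in males (4.70-fold, adjusted p = 0.00083) and -3.31 ± 0.25 in females (9.92-fold, adjusted p = 8.2e-05), where ± after a difference is the standard error of the fit. Ccl2 was printed as 10 spots on each array. Their SD within an array was 0.28 to 0.53 on male vehicle arrays and 0.05 to 0.15 on the other 9.

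Ccl7, also a monocyte attractant, was measured by a pair of probes. Probe 1 read -0.33, 0.14 and -0.27 in male dexamethasone cells, against 3.16, 3.79 and 3.40 in male vehicle cells. Probe 2 read -1.40, -0.18 and -0.69 in male dexamethasone cells, against 3.02, 4.18 and 3.50 in male vehicle cells. Vehicle and dexamethasone arrays stood over 3 log2 units apart at both. Females gave -0.74, -0.60 and -0.44 with dexamethasone, against 3.83, 3.93 and 4.47 with vehicle, at probe 1. At probe 2 they gave -1.08, -1.04 and -0.85 with dexamethasone, against 3.48, 3.60 and 4.16 with vehicle. No arrays overlapped between treatments in either sex. The fall was -3.60 ± 0.23 (12.1-fold, adjusted p = 4.5e-05) at probe 1 and -4.32 ± 0.35 (20.0-fold, adjusted p = 0.00012) at probe 2 in males. In females it was -4.67 ± 0.23 (25.5-fold, adjusted p = 6.7e-06) at probe 1 and -4.74 ± 0.35 (26.7-fold, adjusted p = 7.5e-05) at probe 2. Ordered from the largest fall among 30977 probes, probe 2 ranked 3 in males and 3 in females, and probe 1 ranked 8 in males and 4 in females. The pair correlated at r = 0.993 over the 12 arrays, which share treatments and slides.

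Ccl12, a Ccr2 ligand as known from mouse, was at -2.72, -0.53 and -1.51 in male dexamethasone cells, against 1.92, 3.20 and 2.98 in male vehicle cells. Female cells read -0.54, -0.55 and 0.09 with dexamethasone, against 2.69, 3.16 and 3.54 with vehicle. The groups were apart in both sexes, and replicate 1 of male dexamethasone was the lowest array. The fall was -4.28 ± 0.51 in males (19.5-fold, adjusted p = 0.0012), where Ccl12 ranked 4 among all probes, and -3.46 ± 0.51 in females (11.0-fold, adjusted p = 0.005), where it ranked 8.

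Ccl3 and Ccl4 are the macrophage inflammatory proteins, and Ccl3 is a ligand of Ccr1. Ccl3 was at -0.33, 0.89 and 0.21 in male dexamethasone cells, against 1.89, 3.95 and 3.07 in male vehicle cells. Female cells had 0.34, 0.68 and 1.37 with dexamethasone, against 3.49, 3.37 and 4.22 with vehicle. The groups did not overlap, and the gap between them was wider in females than in males. The fall was -2.71 ± 0.50 in males (6.55-fold, adjusted p = 0.0092) and -2.90 ± 0.50 in females (7.44-fold, adjusted p = 0.012). The female call was lost without female vehicle replicate 3 (adjusted p = 0.057) and without female dexamethasone replicate 1 (0.059) or 2 (0.055).

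Ccl4 was at -4.84, -3.68 and -4.12 in male dexamethasone cells, against -2.53, -0.56 and -0.92 in male vehicle cells. Female cells had -4.27, -3.34 and -3.39 with dexamethasone, against -0.42, -2.12 and 0.50 with vehicle. The groups did not overlap, but vehicle arrays of both sexes were widely spread, with an SD of 1.05 in males and 1.33 in females. The fall was -2.88 ± 0.66 in males (7.34-fold, adjusted p = 0.023) and -2.99 ± 0.66 in females (7.94-fold, adjusted p = 0.035). It was -3.48 in males without vehicle replicate 1, and in females -3.71 without vehicle replicate 2 and -2.40 without vehicle replicate 3. In males it did not pass when vehicle replicate 2 or dexamethasone replicate 1 or 3 of that sex was left out (adjusted p = 0.059 to 0.066). The female call was lost without female vehicle replicate 1 or 3, any female dexamethasone array or male dexamethasone replicate 3 (adjusted p = 0.053 to 0.14).

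Ccl20, the ligand of Ccr6 on lymphocytes and dendritic cells, was at -4.65, -3.60 and -3.85 in male dexamethasone cells, against -2.29, -0.81 and -1.33 in male vehicle cells. Female levels were -4.82, -3.09 and -2.96 with dexamethasone, against -1.80, -0.86 and -1.59 with vehicle. Every dexamethasone array was below every vehicle array of its sex. The fall was -2.56 ± 0.53 in males (5.89-fold, adjusted p = 0.015) and -2.21 ± 0.53 in females (4.62-fold, adjusted p = 0.046). The female call was near the threshold. It held on leaving out replicate 1 of male dexamethasone or replicate 1 or 2 of male vehicle, and was lost on leaving out any other array (adjusted p = 0.053 to 0.14), with a difference of -1.61 without female dexamethasone replicate 1.

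Ccl5, a ligand of Ccr1 and Ccr3, stood apart from the others. It was at -0.18, 0.46 and 0.84 in male dexamethasone cells, against 0.57, 1.29 and 0.77 in male vehicle cells. In females it was at 0.72, 0.81 and 0.37 with dexamethasone, against 0.77, 1.12 and 0.50 with vehicle. The groups overlapped in both sexes. The difference was -0.50 in males (95% interval -1.13 to 0.13, adjusted p = 0.29) and -0.16 in females (-0.79 to 0.47, adjusted p = 0.89). A fall of the size measured for the other 6 genes, 2.21 or more, lies outside both intervals. In the male arrays of slide 1 alone the difference was -1.05, and in the female arrays of slide 3 alone it was 0.14.

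**Figure D2:**
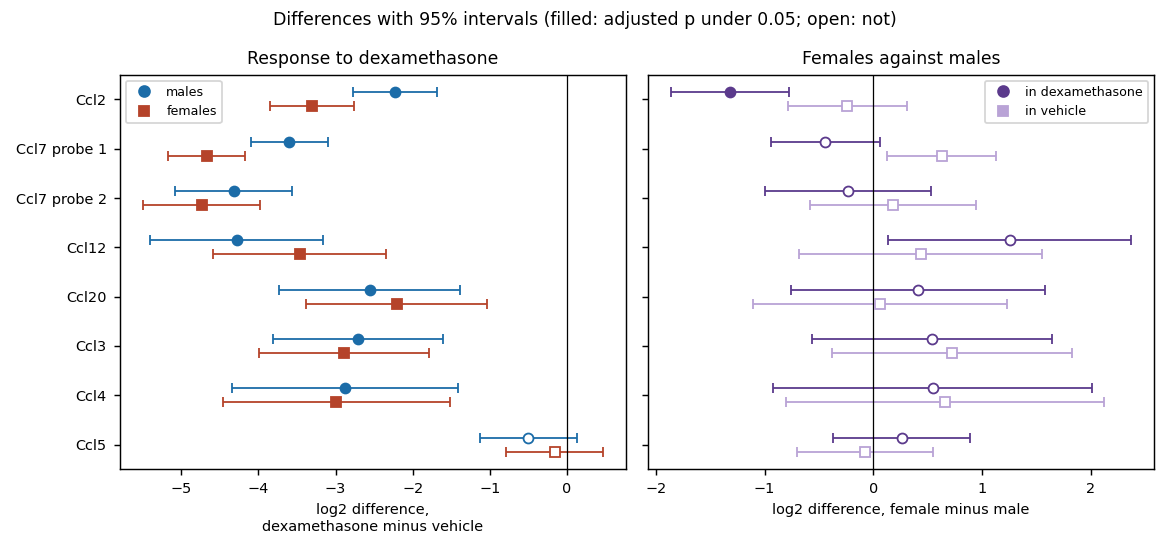
Log2 differences of the 8 probes with 95% intervals from the limma fit. The left panel gives dexamethasone minus vehicle in males (circles) and females (squares), and the right panel gives female minus male in dexamethasone (circles) and in vehicle (squares). Filled symbols have an adjusted p under 0.05. On the left 7 probes are filled in both sexes and Ccl5 is open, and on the right only Ccl2 in dexamethasone is filled.

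Of probes over the whole array, 0.558% (173 probes) fell in both sexes, and 0.107% (33 probes) did so by more than 2 log2 units each time. The 7 chemokine probes are among both. Arrays of dexamethasone lay wholly below those of vehicle for 7 of 8 chemokine probes in each sex, as they did for 14.1% of all probes in males and 17% in females. The histogram of all probes places the 7 probes in the lower tail and Ccl5 in the bulk of the array.

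**Figure D3:**
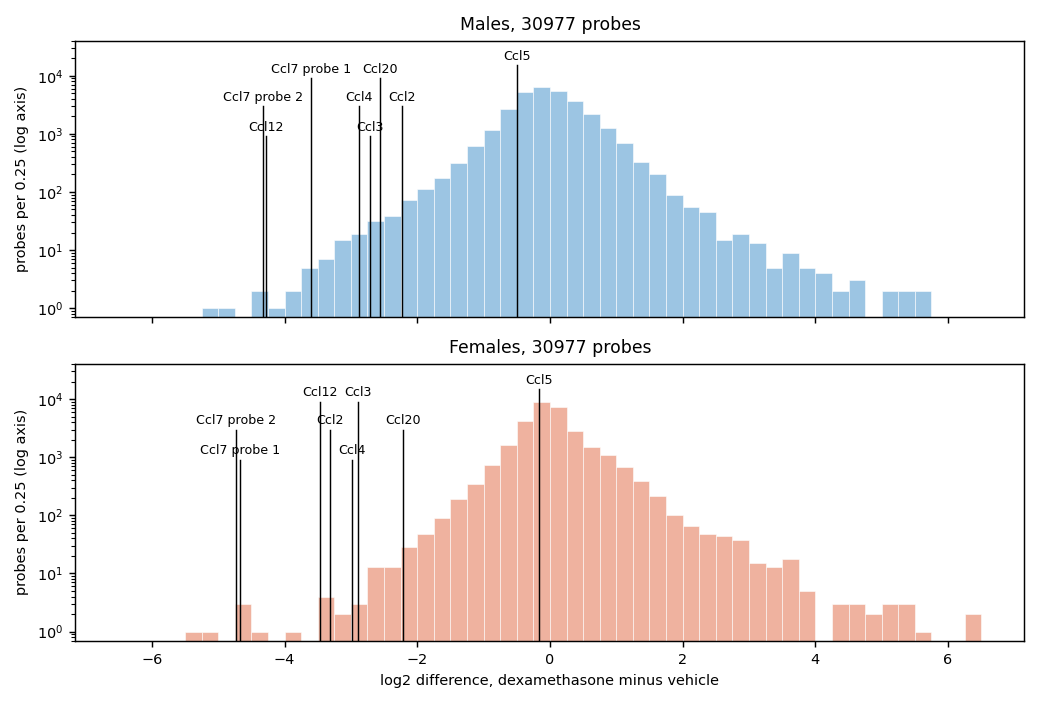
Number of probes (y axis, log scale, per 0.25 log2 units) by log2 difference, dexamethasone minus vehicle (x axis), over 30977 probes in males (top) and females (bottom). Vertical lines mark the chemokine probes, and their height has no meaning. They lie between -4.32 and -2.23 in males and between -4.74 and -2.21 in females, apart from Ccl5.

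Slide and treatment were only partly separate. Slide 1 held 3 male vehicle arrays and 1 male dexamethasone array, and slide 3 held 1 female vehicle array and 3 female dexamethasone arrays. Within slide 1 the 7 differences ran from -5.42 (Ccl12) to -2.35 (Ccl2), and within slide 3 from -5.15 (Ccl7 probe 2) to -2.04 (Ccl20). Within slide 1, where the lone dexamethasone array is taken to vary like the vehicle arrays, none of the probes passed after adjustment (adjusted p = 0.28 to 0.43 for the 7, all of which had an unadjusted p under 0.05), and no probe of the array did, although 2458 had an unadjusted p under 0.05. Within slide 3 the vehicle arm is likewise 1 array, taken to vary like the dexamethasone arrays; there 6 passed, and Ccl20 did not (adjusted p = 0.29). With slide as a fixed block, Ccl2, both Ccl7 probes and Ccl12 passed in each sex, and Ccl20, Ccl3 and Ccl4 did not (adjusted p = 0.078, 0.053 and 0.072 in males, 0.32, 0.061 and 0.06 in females). A fit to the arrays of 1 sex alone did not call Ccl3 (0.068) or Ccl4 (0.060) in males or Ccl20 (0.060) in females, and array weights did not call Ccl20 (0.080) or Ccl4 (0.062) in males. In females Ccl20 was also not called with quantile normalization (0.067) or without the filter on dim probes (0.070), nor was Ccl4 without that filter (0.053).

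The male and female responses were compared with each other as an interaction. The Ccl2 fall was 1.08 log2 units larger in females, at -3.31 against -2.23 in males, with a difference of -1.08 (95% interval -1.85 to -0.31). For Ccl7 probe 1 the difference was -1.07 (-1.78 to -0.36), and for probe 2, which overlaps it, -0.41 (-1.49 to 0.67). For Ccl12 the sign was the opposite, at 0.82 (-0.76 to 2.40). Ccl20, Ccl3, Ccl4 and Ccl5 had differences between -0.18 and 0.35, with intervals reaching at least 0.55 to each side of 0. None of the 8 probes passed in limma (adjusted p = 0.19 to 0.98, with 2 probes, Ccl2 and Ccl7 probe 1, at an unadjusted p under 0.05), and 0.107% of all probes did. Without the filter on dim probes, Ccl7 probe 1 reached an adjusted p of 0.049, with its difference still at -1.07. That fit called 7427 of 41011 probes. With slide as a fixed block the difference at probe 1 was -1.29 (adjusted p = 0.35).

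Female and male cells differed in Ccl2 with dexamethasone. The female dexamethasone values of 2.65, 3.14 and 3.13 were all below the male dexamethasone values of 4.17, 4.26 and 4.44, a difference of -1.32 ± 0.25 (2.49-fold lower in females, adjusted p = 0.02). Of all probes, 2.99% passed and 1.77% were lower in females, and female arrays lay wholly below male arrays for 15.5%. The call was lost with slide as a fixed block (-1.24, adjusted p = 0.47), and on leaving out any female dexamethasone array, or replicate 2 or 3 of male dexamethasone (adjusted p at most 0.072). No slide held dexamethasone cells of both sexes. The other 7 probes did not pass. Ccl12 had a difference of 1.25 ± 0.51 with overlapping arrays (adjusted p = 0.22).

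In vehicle, 0 of 8 chemokine probes differed between females and males in limma (adjusted p under 0.05), and 14% of all probes did. So few probes cannot set 0 apart from that share. An unadjusted p under 0.05 was reached by 9364 of all 30977 probes and by 1 chemokine probe. That 1 was Ccl7 probe 1, at 3.83, 3.93 and 4.47 in females against 3.16, 3.79 and 3.40 in males. These arrays did not overlap, with every female array higher, as was so for 14% of all probes, yet the difference of 0.63 ± 0.23 had an adjusted p of 0.089, and the overlapping probe 2 gave 0.18 ± 0.35. Probe 1 passed with normexp background correction (0.78, adjusted p = 0.018) and with slide as a random block (0.64, adjusted p = 0.038). Those fits called 14108 and 7240 of all 30977 probes. With slide as a fixed block its difference was 0.17 (adjusted p = 0.87). All male vehicle arrays lay on slide 1, which held no female array. In the main fit the other differences ran from -0.24 (Ccl2) to 0.72 (Ccl3). The order of the 4 groups was thus female vehicle, male vehicle, male dexamethasone, female dexamethasone from high to low for Ccl7. For Ccl12, Ccl20, Ccl3 and Ccl4 it was female vehicle, male vehicle, female dexamethasone, male dexamethasone, and for Ccl2 it was male vehicle, female vehicle, male dexamethasone, female dexamethasone. For Ccl5, where all neighbours overlapped, it was male vehicle, female vehicle, female dexamethasone, male dexamethasone. Among neighbours in these orders, the vehicle groups overlapped for every chemokine except at Ccl7 probe 1. The dexamethasone groups overlapped except for Ccl2 and Ccl7 probe 1. Vehicle and dexamethasone groups were apart except for Ccl5.

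Few receptors of the chemokines were measured. Of 14 receptor genes listed, 11 had a probe and 6 passed the filter, with a median difference of -0.51 in males and -0.68 in females. In males none rose and 1, the decoy-like receptor Ccrl2, fell (-0.75 ± 0.20, adjusted p = 0.043), and in females none passed, with 3 at an unadjusted p under 0.05. Ccr2 was above background on 0 of 3 male dexamethasone, 0 of 3 male vehicle, 1 of 3 female dexamethasone and 3 of 3 female vehicle arrays. The Ccr6 probe was above background on 0 of 12. Ccr1, a receptor of myeloid cells, had differences of -0.28 ± 0.44 in males (adjusted p = 0.74) and -0.72 ± 0.44 in females (adjusted p = 0.5). It was higher in female than in male vehicle cells by 1.84 ± 0.44 (adjusted p = 0.022), but it was above background on 2 of 3 male vehicle arrays, so the size is uncertain.

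No other CC chemokine was called for dexamethasone. Of 12 listed, 9 were measured, and in limma none rose or fell in either sex, with 1 in males and 1 in females at an unadjusted p under 0.05. Their median difference was -0.12 in males and 0.03 in females. Ccl6, Ccl9 and Ccl27 were the 3 above background on all 12 arrays and were chosen here after their values were seen. In males their differences were -0.77 ± 0.52, -0.12 ± 0.19 and -0.46 ± 0.17 (adjusted p = 0.38, 0.73 and 0.12). In females these were -0.16 ± 0.52, 0.06 ± 0.19 and -0.01 ± 0.17 (adjusted p = 0.95, 0.95 and 0.99). Ccl24, an eosinophil attractant, was higher in female than in male vehicle cells by 3.07 ± 0.57 (adjusted p = 0.007), but it was above background on 2 of 3 male vehicle arrays, all of slide 1, which held no female array.

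Among signals that induce chemokines, both forms of interleukin 1 fell. Of 19 listed genes 17 were measured. Of these, 3 rose and 7 fell in males, and 2 rose and 2 fell in females. Over all probes, 5.35% rose and 4.85% fell in males, and 2.8% rose and 1.01% fell in females. The falls in males included the NF-kB subunits Nfkb1 (-0.82 ± 0.19, adjusted p = 0.023), Nfkb2 (-1.09 ± 0.30, adjusted p = 0.045) and Rela (-0.78 ± 0.21, adjusted p = 0.042). Tnfrsf1a and Tlr2 fell in males too (adjusted p = 0.026 and 0.049). Nfkbiz, of the same list, rose in males (2.62 ± 0.59, adjusted p = 0.02). It was above background on 1 of 3 male vehicle arrays, so the size is uncertain. All of these were named after their values were seen, and none passed in females (adjusted p = 0.064 to 0.97). The median difference of the 17 was -0.53 in males and -0.32 in females. Il1b was at -3.91, -3.18 and -4.69 in male dexamethasone cells, against 0.81 and 1.08 in male vehicle replicates 1 and 3. Its spot on male vehicle replicate 2 was marked as an outlier and left out. Female levels were -3.80, -3.27 and -3.42 with dexamethasone, against 1.59, 1.98 and 1.21 with vehicle. The treatments were over 3 log2 units apart in both sexes. The difference was -4.87 ± 0.39 in males (adjusted p = 0.00025) and -5.09 ± 0.35 in females (adjusted p = 1e-04).

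Il1a was at -6.63, -5.50 and -6.20 in male dexamethasone cells, against -3.35, -1.83 and -2.63 in male vehicle cells, and was not above background on replicate 1 of either, nor on replicate 1 of female dexamethasone. With signals not well above background on those arrays, the size of its fall is uncertain. The difference was -3.51 ± 0.39 in males (adjusted p = 0.00091) and -3.31 ± 0.39 in females (adjusted p = 0.0014). Il1r1, the signalling receptor of both, rose by 1.53 ± 0.22 in males (adjusted p = 0.0027), where 2 of 3 vehicle arrays were above background, and 1.13 ± 0.22 in females (adjusted p = 0.018). The other gene that rose in females was Nfkbia, the inhibitor of NF-kB (1.11 ± 0.25, adjusted p = 0.038), named here after its values were seen. In males its difference was 0.44 ± 0.25 (adjusted p = 0.3). Tnf was above background on 2 of 3 male dexamethasone, 0 of 3 male vehicle, 2 of 3 female dexamethasone and 3 of 3 female vehicle arrays, and its female difference was -1.41 ± 0.54 (adjusted p = 0.2). Fos, a part of AP-1, rose in males (adjusted p = 0.015), but it was above background on 0 of 3 male vehicle arrays and no fold can be bounded.

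**Figure D4:**
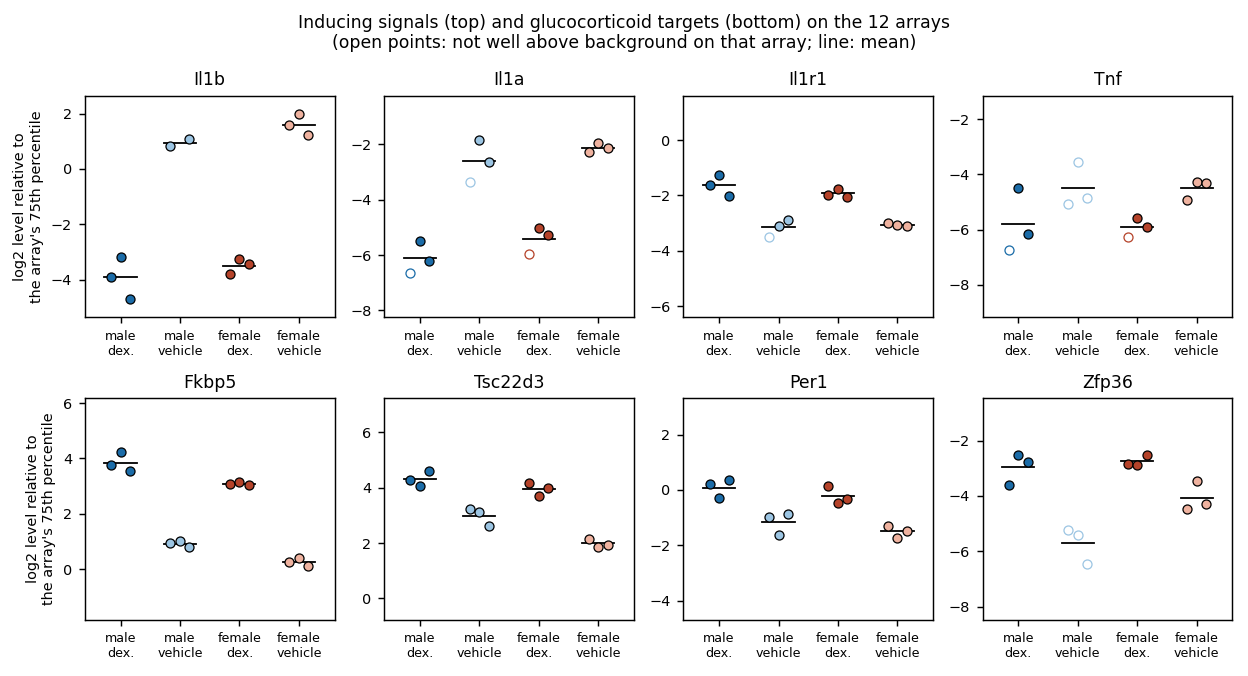
Levels on the 12 arrays (y axis: log2 level relative to the array's 75th percentile) of 4 inducing signals (top) and 4 glucocorticoid targets (bottom), in male dexamethasone, male vehicle, female dexamethasone and female vehicle cells. Points are arrays, open where not well above background, and lines are means. Il1b and Il1a lie lower with dexamethasone, and Il1r1, Fkbp5, Tsc22d3, Per1 and Zfp36 lie higher. Il1b has 2 male vehicle points because 1 spot was left out as an outlier.

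Of 6 listed genes of glucocorticoid action, all were measured, and 4 rose in males and 3 in females, with none falling. Their median difference was 1.28 in males and 1.31 in females. Fkbp5, a chaperone partner of the receptor and a standard glucocorticoid target, was at 3.75, 4.24 and 3.54 in male dexamethasone cells, against 0.94, 1.00 and 0.80 in male vehicle cells. Female cells read 3.09, 3.17 and 3.03 with dexamethasone, against 0.25, 0.39 and 0.10 with vehicle. The groups were apart by more than 2 log2 units in each sex. It rose by 2.93 ± 0.18 in males (adjusted p = 4.5e-05) and 2.84 ± 0.18 in females (adjusted p = 5.3e-05).

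Tsc22d3, or GILZ, which binds NF-kB and AP-1 proteins, rose by 1.31 ± 0.21 in males (adjusted p = 0.0053) and 1.96 ± 0.21 in females (adjusted p = 0.00087). Per1, a clock gene, rose by 1.25 ± 0.26 in males (adjusted p = 0.014) and 1.28 ± 0.26 in females (adjusted p = 0.023). Zfp36, whose protein speeds the decay of cytokine and chemokine RNA, was above background on 3 of 3 male dexamethasone and 0 of 3 male vehicle arrays. It was at least 1.81-fold higher with dexamethasone there (adjusted p = 0.0026), which sets the mean of dexamethasone arrays against the lowest signal well above background on each vehicle array. In females its difference of 1.32 ± 0.38 had an adjusted p of 0.091. Dusp1, a phosphatase of stress kinases, had differences of 0.86 ± 0.36 in males (adjusted p = 0.15) and 1.29 ± 0.36 in females (adjusted p = 0.078). Nr3c1, the receptor, had differences of 0.67 ± 0.29 in males (adjusted p = 0.17) and 0.27 ± 0.29 in females (adjusted p = 0.76).

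Markers of other liver cells were present. Of 18 Kupffer cell and macrophage markers, 14 were measured, and none rose or fell with dexamethasone in limma, with 2 in males and 0 in females at an unadjusted p under 0.05. Their summed level, on a linear scale in multiples of the 75th percentile, was 60.9 to 120 on male dexamethasone arrays against 52.1 to 101 on male vehicle arrays. In females it was 67.0 to 139 with dexamethasone against 55.0 to 113 with vehicle, so the ranges overlapped in both sexes. Between the sexes in vehicle, 2 of the 14 were higher in females, as were 6.25% of all probes. These were Csf1r (1.85 ± 0.37, adjusted p = 0.0097) and Itgam (adjusted p = 0.01, above background on 1 of 3 male vehicle arrays). All male vehicle arrays lay on slide 1, which held no female array, so sex and slide cannot be told apart here. The median of the 14, female minus male, was 0.92 in vehicle and 0.84 in dexamethasone, against -0.04 and 0.02 over all probes. The part of these markers in the sex differences of Ccl2, Ccr1 and Ccl24 was not tested. Clec4f, a Kupffer cell lectin, had differences of -0.11 ± 0.41 in males (adjusted p = 0.89) and -0.28 ± 0.41 in females (adjusted p = 0.85). No probe carried the symbols Marco, Timd4, Cd5l or Msr1.

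Of 12 lymphocyte markers 8 were measured. Their summed level was 0.807 to 1.05 with dexamethasone against 0.885 to 1.24 with vehicle in males, and 1.09 to 1.55 with dexamethasone against 0.969 to 1.77 with vehicle in females. In male vehicle cells, 5 of the 8 were above background on no array and 2 on all 3, so the male sums are uncertain. Cd3e, Cd2 and Ms4a1 were among those that did not pass the filter. Klrb1a, a natural killer cell marker, fell in males (-1.11 ± 0.21, adjusted p = 0.011). Of 10 stellate cell and fibroblast markers 7 were measured, and Pdgfrb fell in females (-1.13 ± 0.28, adjusted p = 0.048). The summed level of these was 1.30 to 4.85 with dexamethasone against 1.20 to 4.42 with vehicle in males, and 3.54 to 6.22 with dexamethasone against 6.01 to 12.3 with vehicle in females. Between the sexes in vehicle, 5 of the 7 were higher in females, as were 6.25% of all probes. Of those 5, Lrat and Pdgfrb were above background on 0 of 3 male vehicle arrays and Dcn on 1 of 3, all on slide 1. Of 9 endothelial markers 7 were measured. Vwf rose in females (1.75 ± 0.40, adjusted p = 0.037), and Emcn, called lower in males (adjusted p = 0.047), was above background on 0 of 3 arrays of either male group. None of the 5 measured cholangiocyte markers passed in limma, with 0 in males and 2 in females at an unadjusted p under 0.05. Of the 10 hepatocyte markers, Cps1 rose in both sexes (2.43 ± 0.56, adjusted p = 0.023 in males and 2.50 ± 0.56, adjusted p = 0.036 in females) and Fgb fell in males (-0.73 ± 0.17, adjusted p = 0.022). Which cells held the chemokine RNA, and the part of these cells in its fall, was not tested.

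Across the 12 arrays, which share treatments and slides, the 6 chemokines that fell tracked each other with Pearson's r between 0.811 (Ccl4 and Ccl2) and 0.973 (Ccl3 and Ccl12), and Ccl5 tracked them at 0.436 to 0.615. Among 10231 genes with a symbol, those most like Ccl2 were Slc20a1 (r = 0.964, Spearman's rho = 0.944), Phlda1 (r = 0.950, rho = 0.916) and Runx1 (r = 0.946, rho = 0.874). Ccl7 was nearest to Phlda1 (r = 0.982, rho = 0.944), Il1b (r = 0.978, rho = 0.846) and Il7 (r = 0.976, rho = 0.895). Ccl12 was nearest to Il1a (r = 0.980, rho = 0.930), Cd83 (r = 0.973, rho = 0.951) and Ccl3 (r = 0.973, rho = 0.972).

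Il1a also headed the list for Ccl3 (r = 0.974, rho = 0.944), followed by Ccl12 and Tnfrsf14 (r = 0.971, rho = 0.937). Ccl20 was nearest to Nav1 (r = 0.969, rho = 0.965), Il1a (r = 0.960, rho = 0.951) and Cd83 (r = 0.953, rho = 0.930). Ccl4 was nearest to Ccl3 (r = 0.965, rho = 0.958), Areg (r = 0.937, rho = 0.902) and Ccl12 (r = 0.927, rho = 0.895). For Ccl5 the nearest were Gtf3a (r = 0.916, rho = 0.818), Ptprn (r = 0.861, rho = 0.839) and Itm2c (r = 0.849, rho = 0.615).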

How the data were processed

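RNA of 12 rat hepatocyte cultures was measured on 1-colour Agilent arrays, 4 to a slide. Per the file headers, each deposited file holds spot intensity values from Agilent Feature Extraction 9.5.3.1 (9.5 in the submitters' processing notes), background-subtracted within the array and not scaled between arrays. The authors' deposited value table holds the same intensity values (540216 of 540216 equal). Here outlier spots were left out, spots of a probe were averaged as log2 values, and each array's 75th percentile was subtracted. A probe was kept if, in 1 group or more, each of the 3 arrays had it well above background.

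One limma 3.58.1 model (R 4.3.3) of 4 group means took in the 12 arrays, with eBayes and Benjamini-Hochberg adjustment over 30977 probes, and was tested on simulated data. Tests were two-sided, with an adjusted p threshold of 0.05. Differences are signed as dexamethasone minus vehicle and as female minus male. A list gene with several probes was read from its brightest. Genes named beyond the chemokines were the members of each list with the smallest adjusted p, at most 4 a list, and a few fixed names. Up to 3 were named from a marker list. Genes named after their values were seen are said to be so. Genes and lists were chosen with earlier results of these data known. Arrays give no read depth, so their number limits precision.

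Same-numbered replicates deviated together between dexamethasone and vehicle (r = 0.270 to 0.459 in males, 0.270 to 0.434 in females) and between the sexes in dexamethasone (0.172 to 0.214), but not in vehicle (0.017 to 0.110); this pairing comes from the data, not the labels. Alternatives covered background, scaling, filter, slide, pairing, array weights and leaving out each array; slides 2 and 3 alone were added after seeing the data.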

Additional observations from a re-analysis of the deposited data

How the results depend on the processing

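The 7 chemokine probes that fell kept their sign under every alternative run, in both sexes. Under the scaling alternatives (normexp background, quantile normalization, array median, no filter), which moved the median over all probes to as low as -0.25 in males and -0.36 between the sexes in vehicle, the 14 falls were all negative, and the fewest called were 12. Where a call was lost, the cause was not tested. The replicate block changed no call of a chemokine probe: 7 fell in males and 7 in females, and Ccl2 in dexamethasone still differed. The number of chemokine probes called was 4 in males and 4 in females with slide as a fixed block, and 0 within slide 1. Without 1 array it was 6 to 7 in males and 4 to 7 in females. For the difference of responses it was 1 without the filter. Between the sexes in vehicle it was 1 with normexp and 1 with slide as a random block. In dexamethasone it was 0 with slide as a fixed block, 2 with array weights (Ccl12 at 1.16, adjusted p = 0.044, beside Ccl2), and 0 to 1 without 1 array.

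Counts over all probes moved more. The male response had 3159 calls, against 12610 without the filter, 574 with slide as a fixed block, 0 within slide 1 (2458 at an unadjusted p under 0.05), 333 from the male groups alone, 1268 with array weights, and 1409 to 4159 without 1 array. The female response had 1182, against 630 with quantile normalization, 577 for probes above background on all 12 arrays, 309 with slide as a fixed block, 2978 from the female groups alone, 5720 with array weights, 2694 on slides 2 and 3 and 354 to 1591 without 1 array. The difference of responses had 33, against 0 with normexp (5177 at an unadjusted p under 0.05), 320 with quantile normalization, 15 with the array median, 7427 without the filter, 4 for probes above background on all 12 arrays, 4 and 525 with slide as a fixed and a random block, 6 with the replicate block, 227 with array weights, and 0 to 664 without 1 array. Females against males in vehicle had 4331, against 14108 with normexp, 14243 without the filter, 176 and 7240 with slide as a fixed and a random block, 1011 from those groups alone, 2610 with array weights, and 1970 to 5276 without 1 array. In dexamethasone there were 927, against 604 without the filter, 36 and 2145 with slide as a fixed and a random block, 1743 with the replicate block, 5381 with array weights, 1935 on slides 2 and 3, and 205 to 1353 without 1 array. The split of calls moved with scaling: the male response had 1658 higher and 1501 lower, against 1112 and 3518 with normexp, 1236 and 2502 with the array median, and 2643 and 1288 with quantile normalization. The female response had 868 higher and 314 lower, against 616 and 370 with the array median. Vehicle females against males had 1937 higher and 2394 lower, against 1875 and 12233 with normexp and 3502 and 2001 with quantile normalization. In dexamethasone they had 380 higher and 547 lower, against 258 and 823 with normexp. The difference of responses had 23 higher and 10 lower, against 12 and 3 with the array median and 39 and 281 with quantile normalization.

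No value that turned sign had an adjusted p under 0.05 in either setting. In females Ccl5 turned to 0.14 with slide as a fixed block and within slide 3. For the difference of responses, Ccl4 was 0.030 with slide as a random block, and without 1 array it ran from -0.83 to 0.49 and Ccl3 from -0.68 to 0.36. In vehicle, slide as a fixed block turned Ccl3 (-0.42), Ccl20 (-0.78), Ccl12 (-1.47), Ccl4 (-0.88) and Ccl7 probe 2 (-0.99), normexp (-0.25) and array weights (-0.18) turned Ccl20, quantile normalization turned Ccl2 (0.010), and slide as a random block turned Ccl5 (0.049). Without 1 array, Ccl20 ran from -0.35 to 0.39, Ccl7 probe 2 from -0.10 to 0.49, Ccl2 from -0.52 to 0.0062 and Ccl5 from -0.24 to 0.13. In dexamethasone, slide as a fixed block turned Ccl3 (-0.54) and Ccl4 (-1.53), and array weights (-0.0042) and slides 2 and 3 alone (-0.014) turned Ccl5. Without 1 array, Ccl5 ran from -0.014 to 0.49 and Ccl7 probe 2 from -0.56 to 0.052. No fit to 1 slide or to 2 groups gave a difference of responses.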
